A study of Mus musculus with 11 samples.

Results

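The neural marker genes are 7 genes chosen by name (Tubb3, Nes, Pax6, Nefm, Nefl, Ncam1 and Map2) from the 22369 mouse genes of a read count table. All 7 were found by matching Ensembl gene IDs to symbols, and all 7 passed the filter for testing (a mean of at least 1 CPM, read counts scaled to library size). The table covers 11 clonal lines of mouse embryonic stem cells, each sequenced once. All derive from EBRTcH3, a line that makes a tetracycline-controlled transactivator from ROSA26, and each clone carries several barcoded piggyBac reporters driven by the mouse PGK promoter. The clones were grown from single colonies after sorting for high eGFP, in medium conditioned by BRL cells with leukemia inhibitory factor, PD0325901 (a MEK inhibitor) and CHIR99021 (a GSK-3 inhibitor). The labels give 1 group and no treated or differentiated sample, so the clones, called 16 to 26 after their titles, are compared with each other. Each clone is 1 colony and 1 library, and differences between clones and differences between library preparations cannot be told apart.

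These genes mark successive steps of neural development. Nestin (Nes) and the transcription factor Pax6 are used to recognise neural progenitors, and the beta-III tubulin Tubb3, the dendritic protein Map2 and the neurofilament subunits Nefl and Nefm recognise neurons. Ncam1 encodes a cell adhesion molecule of the immunoglobulin family that is used as a neural surface marker. Naive embryonic stem cells are not neural, and in them the repressor REST is known to hold many neuronal genes low.

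Reads in genes numbered 10846005 to 16868500 per clone (median 14378599). The detection floor, set at 3 counts, corresponded to 0.173 to 0.284 CPM. The cells carried the markers of embryonic stem cells in every clone, with the 8 pluripotency markers summing to 7682 ± 551 CPM (SD, n = 11). Of 28 other neural progenitor genes in the table, 57.1% (16) were below a mean of 1 CPM, against 44.2% of all genes, and Olig2, Fabp7 and Dbx1 had 0 counts in all 11 clones. Neurog2 and Hes5 were among those 16.

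Against this background the neural markers were detected in all 11 clones, and 6 of 7 spread more between clones than genes of like abundance. Over all genes tested, 7.68% passed the same test (959 of 12479; edgeR goodness-of-fit to the trended dispersion, Benjamini-Hochberg adjusted p under 0.05). The 6 were Nefm, Nefl, Nes, Tubb3, Pax6 and Ncam1, and Map2 did not pass. Pax6 reached the filter only through clone 17 (mean of 0.985 CPM over the other 10), which leaves 5 of 6 members whose passage did not depend on their highest clone. With no filter on low counts the same test still called Pax6 (adjusted p = 0.000104). The members' median SD of log2(CPM + 1) across clones was 0.82, against 0.24 over all genes tested. That median is the SD of Pax6 itself, the member that reached the filter only through clone 17. The members next to it in order were Tubb3 (SD 0.677) and Nefl (SD 0.85). Members and all genes were not matched for abundance here, so these medians are a description only. The 7 genes were picked as markers with earlier results of these data known, so their count is a description of these genes.

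Levels of different genes can be compared only per length. On the scale of CPM per kilobase of annotated exon length, Tubb3 was highest at 26.6 ± 11.6, followed by Nefl at 12.7 ± 7.51, Ncam1 at 8.81 ± 2.77, Nefm at 4.16 ± 3.85 and Nes at 4.02 ± 3.12 (SD, n = 11). Map2 at 0.167 ± 0.0538 and Pax6 at 0.156 ± 0.240 came last. Tubb3 was above Nefl in 10 of 11 clones and Nes was above Map2 in 11 of 11. Nefl exceeded Ncam1 in 7 clones, Nefm exceeded Nes in only 4, and Map2 exceeded Pax6 in 9, so these neighbours in the order did not differ beyond their spread. Exon lengths hold all annotated isoforms and therefore understate genes with many of them, such as Map2 and Pax6.

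**Figure D1:**
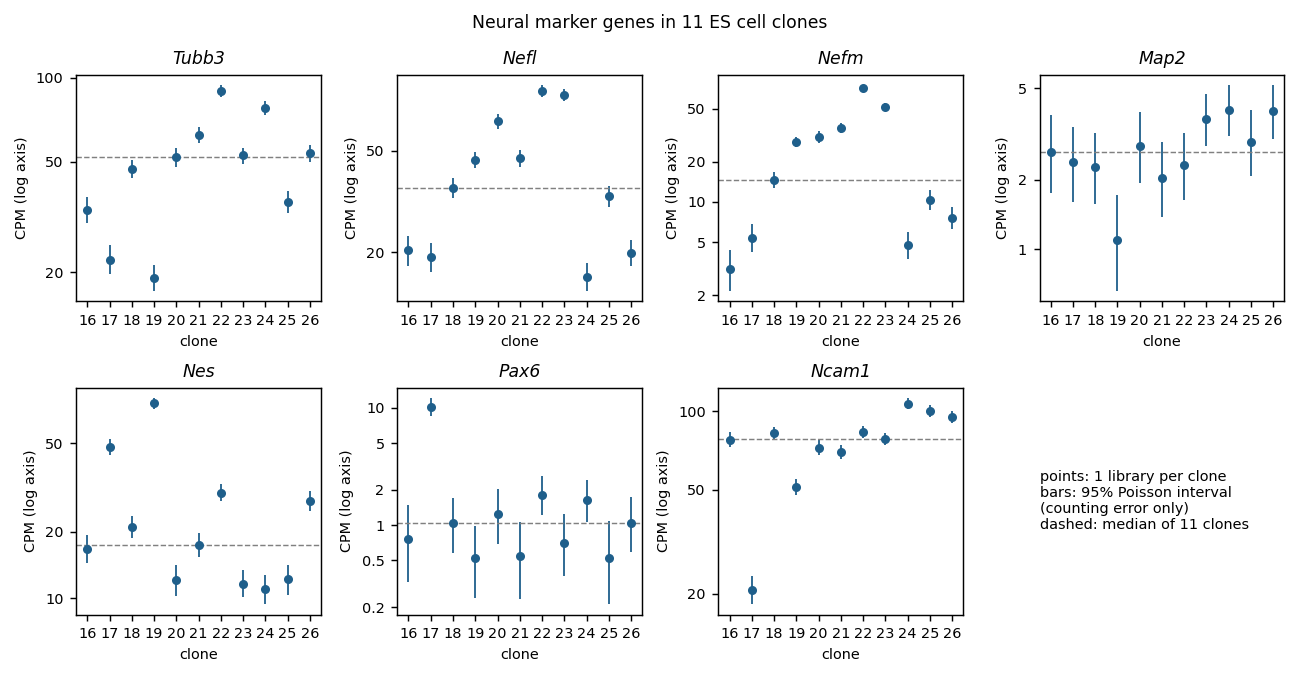
Level of each neural marker gene (CPM, log axis) in clones 16 to 26. Points are 1 library each, bars are 95% Poisson intervals for counting error, and dashed lines are medians of 11 clones. Pax6 stands out in clone 17 at 10.2 CPM and Nes in clone 19 at 75.9 CPM, while Nefm and Nefl share their high clones 22 and 23.

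Among the neuronal cytoskeleton genes of the 7 members, the neurofilament pair had the largest SD of log2(CPM + 1), 1.403 for Nefm and 0.85 for Nefl. Nefm encodes the medium neurofilament subunit and Nefl the light subunit, which co-assemble in axons. Nefm stood at 71.5 CPM (clone 22), 52.1 in clone 23, 35.7 in clone 21, 30.9 in clone 20 and 28.4 in clone 19. It stood at 14.5 CPM in clone 18, 10.4 in clone 25, 7.62 in clone 26, 5.40 in clone 17, 4.73 in clone 24 and 3.12 in clone 16. The highest clone was 22.9-fold above the lowest, and 5 clones lay above the median clone 18 and 5 below it. The adjusted p of the edgeR goodness-of-fit test was 1.21e-29, which ranked Nefm at place 20 among the 12479 genes.

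Nefl had the same pair of clones on top. It stood at 86.0 CPM (clone 22) and 82.6 in clone 23, then at 65.3 in clone 20, 46.7 in clone 21 and 46.1 in clone 19. Clones 18 and 25 held 35.7 and 33.2 CPM, and clones 16, 26, 17 and 24 held 20.3, 19.9, 19.1 and 16.01 CPM. The range was 5.37-fold (edgeR goodness-of-fit, adjusted p = 1.38e-12). The same 5 clones were therefore highest and the same 4 were lowest for both genes.

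Across clones Nefm and Nefl varied together, with Pearson's r = 0.96 and Spearman's rho = 0.94 on log2(CPM + 1) over 11 clones (permutation test, two-sided, adjusted p = 0.00021 for r over 21 pairs of members, the smallest that 100000 resamples can give, and 0.00126 for rho). Without clones 16 and 22, which lie farthest from the median of Nefm, r was 0.97. The ratio of Nefm to Nefl was not constant: per kilobase its highest values were 0.486 (clone 22) and 0.447 (clone 21) and its lowest 0.0897 (clone 16) and 0.166 (clone 17). Nefm thus spread more than Nefl. The genes overlap on chromosome 14 on opposite strands, with Nefl inside the span of Nefm in GENCODE vM21 (GRCm38). Nefm is at chr14:68082590-68124846, minus strand, and Nefl at chr14:68083863-68089095, plus strand. In that annotation the exons of 1 share 1108 bases with those of the other, 32.8% of the Nefl exon length and 19.2% of that of Nefm. The gene models used for counting were not available, so whether the counted genes shared this stretch is not known. The sources used here do not say whether counting used strand, so reads in the shared stretch cannot be told apart, and their part in the correlation was not tested.

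**Figure D2:**
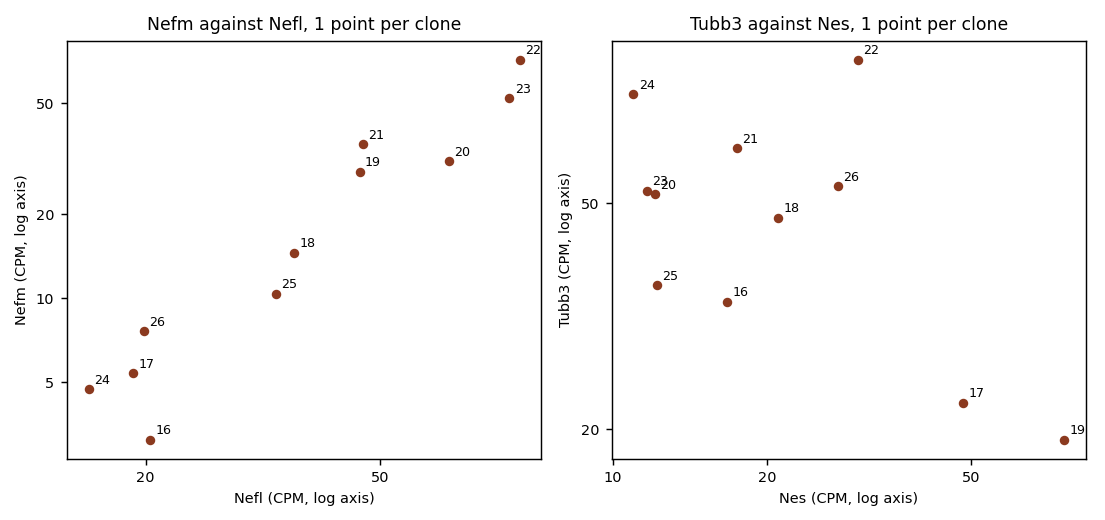
Nefm against Nefl (left) and Tubb3 against Nes (right), in CPM on log axes, 1 labelled point per clone. Nefm and Nefl lie along a line from clones 16 and 24 to clone 22 (r = 0.96), while the Tubb3 and Nes points hold 2 clones, 17 and 19, apart from the other 9.

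Of the other 20 pairs of members, 0 passed at an adjusted p of 0.05 by the permutation test, on r or on rho. The pairs with an unadjusted p under 0.05 for r were Nes with Map2 (r = -0.70, permutation p = 0.0182, adjusted 0.144), Tubb3 with Ncam1 (r = 0.66, permutation p = 0.0206, adjusted 0.144) and Nes with Ncam1 (r = -0.64, permutation p = 0.0372, adjusted 0.195). Without clones 17 and 19 these r were -0.33, 0.09 and -0.08, so these r rested on those clones. By rank, Nes with Map2 had rho = -0.67 (permutation p = 0.0290, adjusted 0.213), Tubb3 with Ncam1 0.55 and Nes with Ncam1 -0.48. Tubb3 with Pax6 had r = -0.21 over 11 clones and 0.72 without clones 17 and 19 (permutation p = 0.0285, not adjusted). Tubb3 and Nes had r = -0.59 (permutation p = 0.0586, adjusted 0.246), and 0.28 without clones 17 and 19.

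Tubb3, the tubulin isotype of neurons (ENSMUSG00000062380, chr8:123411424-123422015, plus strand), was at 89.6 CPM in clone 22, 77.8 in clone 24 and 62.5 in clone 21. It lay between 47.1 and 53.6 CPM in clones 18, 20, 23 and 26, at 35.9 and 33.6 in clones 25 and 16, and at 22.2 and 19.2 in clones 17 and 19. The range was 4.67-fold (edgeR goodness-of-fit, adjusted p = 1.09e-06). No clone was called against the other 10: clone 22 differed by 0.97 ± 0.51 on the log2 scale (± SE) with an adjusted p of 0.939 by edgeR's quasi-likelihood test, and clone 19 by -1.46 ± 0.60 with one of 0.740. The promoter window of Tubb3 (chr8:123411303-123411602, plus strand, 250 bases before to 50 after the start, RefSeq sequence on GRCm38.p6) is shown because Tubb3 is the most abundant member per length and Rest transcripts were high in these cells (564 ± 73.3 CPM). Capitals mark exact matches, on either strand, to the left part of the REST element, searched as AGCACC, or to its right part, searched as GGACAG.
Tubb3 promoter: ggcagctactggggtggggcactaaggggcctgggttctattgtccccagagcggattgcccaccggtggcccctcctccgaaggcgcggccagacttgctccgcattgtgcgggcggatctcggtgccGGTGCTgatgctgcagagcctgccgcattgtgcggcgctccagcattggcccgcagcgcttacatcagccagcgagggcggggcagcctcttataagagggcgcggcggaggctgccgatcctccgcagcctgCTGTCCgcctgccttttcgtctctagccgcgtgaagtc
The window held 1 match to each part, both on the minus strand and 127 bases apart. In the printed sequence GGTGCT was at bases 130 to 135 and CTGTCC at bases 263 to 268. Read along the minus strand, the right part thus came before the left part, the reverse of their order in the element. The left part occurs in 16.2% and the right part in 22.2% of all 32851 promoter windows of this length. The window held 67.3% G and C and a CpG ratio (observed over expected) of 0.765, against medians of 52.7% and 0.384 over all windows.

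Map2, a microtubule-associated protein of dendrites (ENSMUSG00000015222, chr1:66175273-66442583, plus strand), had the lowest SD of log2(CPM + 1) of the members (0.364). Relative to the mean CPM its SD was 32.2%, slightly above that of Ncam1 (31.5%). Map2 had 19 to 64 counts per clone, which gave 4.03 CPM in clone 24, 3.99 in clone 26 and 3.67 in clone 23, a median of 2.65, and 1.10 CPM in clone 19. The lowest clone had a 95% Poisson interval of 0.661 to 1.71 CPM, which covers counting error only, and did not overlap that of clone 24 (3.11 to 5.15 CPM). The spread exceeded counting noise alone (edgeR goodness-of-fit with dispersion 0, adjusted p = 6.73e-07) but did not exceed the spread of genes at like abundance (adjusted p = 1).

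Nes and Pax6 are the progenitor members. Nes, the intermediate filament of neural progenitors (ENSMUSG00000004891, chr3:87971078-87980451, plus strand), had 75.9 CPM in clone 19 and 48.2 CPM in clone 17. It stood at 30.03 CPM in clone 22, 27.5 in clone 26, 21.05 in clone 18, 17.5 in clone 21 and 16.7 in clone 16, and at 11.0 to 12.2 in clones 20, 23, 24 and 25. Both high clones lay above the other 9 and were the 2 clones with the lowest Tubb3. The edgeR goodness-of-fit test gave an adjusted p of 2.63e-12, and 5.13e-05 without clone 19. Clone 19 alone had a log2 fold change of 1.87 ± 0.55 over the other 10 (SE) and was not called (edgeR quasi-likelihood test, adjusted p = 0.378). In clone 19 the glial list also had its highest sum, 175 CPM, against between 61.1 and 109 CPM in the other 10, carried by Aldh1l1 (95.3 CPM) and Mbp (43.8 CPM), while 5 of its 9 genes, the astrocyte marker Gfap among them, were below a mean of 1 CPM and Aqp4 was at 0 in all clones. The fibroblast list was highest there too (29.4 CPM, against 13.7 to 27.0 CPM in the other 10), mostly through Pdgfrb at 19.3 CPM, with Thy1 at 1.79 and Twist1 at 1.04 CPM below their medians of 3.08 and 2.18, and Col1a2, Col3a1, Postn, Dcn and Lum below a mean of 1 CPM. The trophoblast list had its highest sum in clone 19 as well, 86.4 CPM, against 43.0 to 73.6 CPM in the other 10, of which Tfap2c made 76.3 CPM, and Cdx2, Elf5, Hand1 and Gata3 were below a mean of 1 CPM. The neural lists went the other way in clone 19. The other neural progenitor genes had their lowest sum there, 243 CPM, against 313 to 404 CPM in the other 10, though Notch1 (89.9 CPM) was near its median of 89.5. The other neuronal genes also had their lowest sum there, 461 CPM, against 642 to 863 CPM. In that list Stmn2 was at 59.0 CPM in clone 19, against 176 to 494 CPM in the other 10. The part of these lists in the Nes level was not tested.
The promoter window of Nes (chr3:87970843-87971142, plus strand, same source) is shown as that of the progenitor member with the higher level per length. It held 0 matches to either part of the REST element, to the E-box CAGCTG or to the TATA motif TATAAA, so no letter is in capitals.
Nes promoter: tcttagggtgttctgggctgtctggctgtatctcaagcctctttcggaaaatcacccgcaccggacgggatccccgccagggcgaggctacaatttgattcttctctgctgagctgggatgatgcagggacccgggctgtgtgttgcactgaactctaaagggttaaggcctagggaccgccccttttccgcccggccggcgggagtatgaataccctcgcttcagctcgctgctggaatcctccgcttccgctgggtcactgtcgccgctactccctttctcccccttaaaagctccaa
Its share of G and C was 58.7% and its CpG ratio 0.702. The E-box is found in 16.3% and the TATA motif in 13.6% of all windows.

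Pax6, a paired-box transcription factor of the eye and the neural tube (ENSMUSG00000027168, chr2:105668900-105697364, plus strand), was low in all clones but 1. Clone 17 had 128 counts, or 10.2 CPM (95% Poisson interval 8.49 to 12.1), against 7 to 29 counts and 0.520 to 1.82 CPM in the other 10, which averaged 0.985 ± 0.465 CPM (SD, n = 10). The log2 fold change, 3.35 ± 0.46 (± SE), had an adjusted p of 0.0155 in edgeR's quasi-likelihood test. Since clone 17 carried Pax6 over the filter, the value with no filter, an adjusted p of 0.0146 by edgeR, is the one free of that selection. Of 12479 genes, 0.425% were called higher in clone 17. The call held in all 14 alternatives in which the pair was tested. As a variable gene Pax6 had an adjusted p of 3.38e-05 by the edgeR goodness-of-fit test, and without clone 17 its mean of 0.985 CPM was below the filter and it was not tested. The gene has 2 windows in the RefSeq promoter table, shown to set its separate starts side by side. The first (chr2:105668646-105668945) holds 1 match to AGCACC, in capitals, and the second (chr2:105682213-105682512) 0 matches to the 4 motifs.
Pax6 window 1: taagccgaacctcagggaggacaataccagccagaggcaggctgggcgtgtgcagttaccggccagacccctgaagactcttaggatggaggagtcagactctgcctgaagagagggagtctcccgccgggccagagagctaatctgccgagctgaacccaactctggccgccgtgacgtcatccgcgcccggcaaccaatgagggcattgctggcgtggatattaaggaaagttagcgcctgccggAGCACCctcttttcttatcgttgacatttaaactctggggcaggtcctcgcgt
Pax6 window 2: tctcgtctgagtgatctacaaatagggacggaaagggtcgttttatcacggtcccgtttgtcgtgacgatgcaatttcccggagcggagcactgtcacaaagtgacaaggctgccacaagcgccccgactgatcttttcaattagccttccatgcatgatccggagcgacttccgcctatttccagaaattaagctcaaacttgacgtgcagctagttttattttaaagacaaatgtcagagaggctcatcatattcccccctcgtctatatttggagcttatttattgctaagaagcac
They differ in base composition, with 58.7% G and C in the first and 46.3% in the second, and CpG ratios of 0.698 and 0.998. The count table does not say from which start the clone 17 reads came. Nefm, Nefl and Ncam1 were not matched in the promoter table.

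Ncam1, the adhesion molecule (ENSMUSG00000039542, chr9:49502136-49798925, minus strand), went the other way in clone 17. It was at 20.7 CPM there, against 51.3 CPM in clone 19 and 70.0 to 107 CPM in the other 9. The other 10 averaged 81.9 ± 16.2 CPM (SD, n = 10). The log2 fold change of clone 17, -1.99 ± 0.34 (± SE), had an adjusted p of 0.0410 in edgeR's quasi-likelihood test. In that clone 0.0881% of genes were called lower. The size of the difference stayed between -2.06 and -1.93 in all alternatives, but its adjusted p crossed 0.05 in 9 of 15 and reached 0.155 with neighbours taken into account. Variation of Ncam1 rested on clone 17: the edgeR goodness-of-fit test gave an adjusted p of 5.35e-05 with it and 1 without it. Clone 17 also had the lowest sum of pluripotency markers (6663 CPM against 7112 to 8448 in the other 10), and the part of this in its Ncam1 and Pax6 levels was not tested. An antisense gene, Gm11149, shares 417 exon bases with Ncam1 (4.81% of its exon length).

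Over all 77 pairs of member and clone, 2 were called (Ncam1 in clone 17, and Pax6 in clone 17, which passed the filter only through that clone), against 0.213% of the 137269 pairs of gene and clone. At an unadjusted p under 0.05 there were 5 of 77, a share close to the 5.92% of all pairs. The further 3 were Nes, Map2 and Tubb3 in clone 19, and by number these unadjusted pairs do not set the members apart. Clone 22 held the highest level of 3 members (Tubb3, Nefm and Nefl), and was above the median clone for 6 of 7. Clone 19 held the lowest of 3 (Tubb3, Pax6 and Map2) and clone 16 was above the median for 0 of 7. The summed level of the 7 members was 365 CPM in clone 22 and 128 CPM in clone 17, the highest and the lowest.

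Some chromosome stretches were shifted as a whole in single clones, so each member was set beside the 24 nearest tested genes on its chromosome. In clone 21 the neighbours of Nefm and Nefl were lower, with a median of -0.86 on the log2(CPM + 1) scale relative to the median clone, while Nefm itself was 1.24 and Nefl 0.38 above the median clone. In clone 22 the neighbours of Tubb3 were 0.45 higher and Tubb3 was 0.78 higher. In clone 16 the neighbours of Nes were 0.59 higher, with Nes at -0.06. Chromosome 3 as a whole, which holds Nes, had a median of 0.56 in clone 16 over 463 genes. All other medians of neighbours lay between -0.18 and 0.11, also in clone 17 around Pax6 (-0.10) and Ncam1 (0.00) and in clone 19 around Nes (0.10). With each gene and clone offset by its neighbours, the same 6 members were called variable (edgeR goodness-of-fit, adjusted p between 1.01e-38 and 5.38e-06) and Map2 was not.

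**Figure D3:**
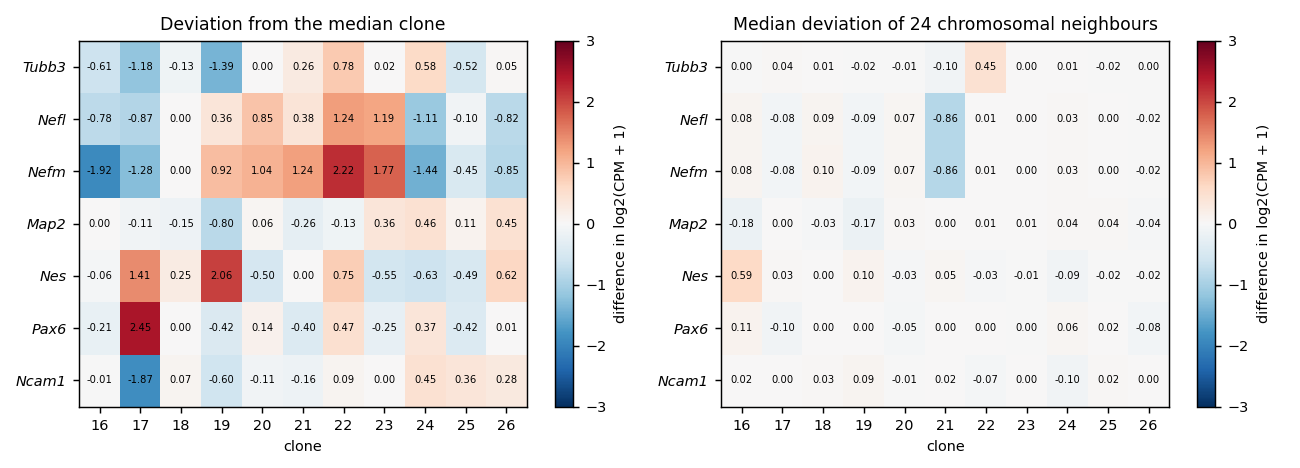
Difference of each member (left) and of the median of its 24 chromosomal neighbours (right) from the median clone, in log2(CPM + 1), for clones 16 to 26. Neighbours stand away from 0 in 3 places, around Tubb3 in clone 22 (0.45), around Nefm and Nefl in clone 21 (-0.86) and around Nes in clone 16 (0.59).

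Of the 14 nearest neighbours, those called variable were Nefl and Nefm, which are each other's neighbour, and Rpe beside Map2 (39.0 to 134 CPM; edgeR goodness-of-fit, adjusted p = 0.00200). Rpe was thus the only one called that is not a member, where 7.68% of all genes tested were variable. Bcan, a proteoglycan gene of the nervous system that lies beside Nes, was at 1.14 ± 0.388 CPM, Dock5 beside Nefm at 139 ± 31.7, Slc25a37 beside Nefl at 28.0 ± 6.32, Elp4 beside Pax6 at 18.3 ± 1.58 and Tcf25 beside Tubb3 at 275 ± 33.2 CPM (SD, n = 11).

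The genes most like each member were found by Pearson's r of log2(CPM + 1) over the 11 clones, among 10353 genes (10354 for Pax6 and Map2) whose mean reached 5 CPM. These are the highest of many r on 11 libraries and are given as a description. For Nefm and Nefl the closest gene was the other of the pair, followed by 4931428F04Rik (r = 0.87 with Nefm and 0.90 with Nefl). 4931428F04Rik lies on chromosome 8. Genes of that chromosome had a median of 0.48 above the median clone in clone 22, the highest clone of Nefm and Nefl. The part of this shift in these r was not tested. For Ncam1 the closest genes were Armcx2 (r = 0.97), Klf4 (0.96) and Ngly1 (0.94). Klf4, a naive pluripotency factor, was lowest in clone 17 (239.97 CPM) and highest in clone 24 (599 CPM), the same clones as for Ncam1. For Nes they were Pde4a (0.96), Gabarapl2 (0.93) and Serpinb1a (0.92), for Tubb3 Ncoa5 (0.96), Jag2 (0.95) and Raver2 (0.95), and for Map2 Orc1 (0.94), Zbtb11 (0.93) and Cep192 (0.92). For Pax6 they were Grk2 (0.98), Mrpl49 (0.96) and Mark2 (0.96), with rho of 0.62 to 0.77. These 3 lie on chromosome 19, whose genes had a median of 0.54 above the median clone in clone 17, the clone that sets the Pax6 pattern.

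Of 16 tubulin and microtubule-associated protein genes tested, Tubb3 and Mapt (20.1 to 71.5 CPM) were variable, which leaves 1 of 14 outside the members (2 with the dispersion trend of DESeq2). The share over all genes tested was 7.68%. Tubb5 (2025 ± 210), Tubb4b (273 ± 42.1) and Tubb2b (262 ± 50.6 CPM) did not pass. Among intermediate filament genes, 3 of 12 tested outside the members were variable by the edgeR goodness-of-fit test: the keratins Krt8 (8.45 to 34.6 CPM) and Krt19 (0.376 to 7.23) and the neuronal filament Ina (2.08 to 18.2, adjusted p = 0.0418). With the dispersion trend of DESeq2, 2 remained and the Krt19 call was lost (adjusted p = 0.0855). Nefh, the heavy neurofilament subunit, spanned 5.11 CPM (clone 16) to 21.4 CPM (clone 22) and did not pass (edgeR goodness-of-fit, adjusted p = 0.553). Its highest clone was also that of Nefm and Nefl. The widely expressed filaments Vim (235 ± 57.7), Lmnb1 (505 ± 79.6) and Lmnb2 (106 ± 13.3 CPM) did not pass.

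Other neuronal genes were variable in 6 of 20 tested, and 37.5% (12 of 32 in the table) were below a mean of 1 CPM, against 44.2% of all genes. The synaptic genes Syp and Syt1 were among those 12, while Syn1 (11.7 ± 1.80 CPM) and Stx1a (7.37 ± 1.63 CPM), also synaptic, were above it. Stmn2, a neuronal stathmin, had the highest level of the list per kilobase (49.2) and averaged 276 ± 105 CPM, with 494 CPM in clone 16 against 59.0 in clone 19. Whether its chromosome stretch was shifted in those clones is not given here. Crmp1, a cytosolic protein of growing axons, had its peaks in clones 22 (25.2 CPM) and 24 (23.7 CPM) against 0.945 CPM in clone 16, and those 2 high clones were also the highest for Tubb3. Uchl1 (9.30 to 60.6), Mapt, Dpysl3 (4.05 to 24.3) and Ina were the other variable genes, while Map1b (184 ± 41.9) and Vamp2 (39.8 ± 6.66 CPM) did not pass.

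**Figure D4:**
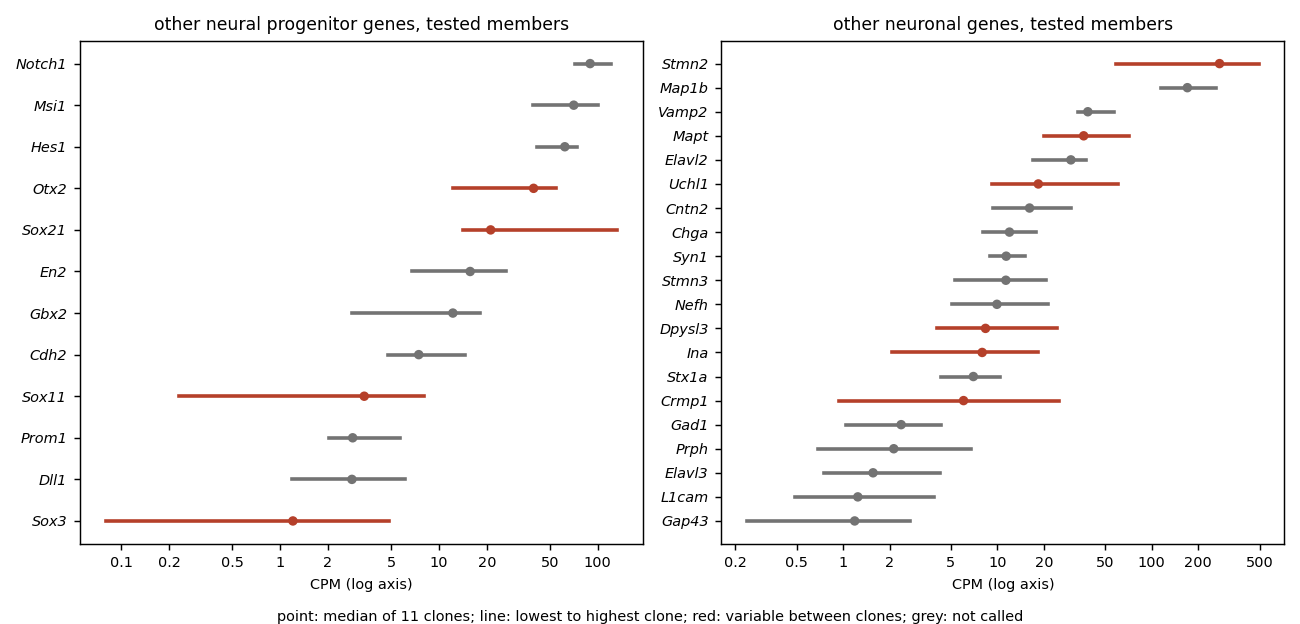
Level in CPM (log axis) of the tested genes of the neural progenitor list (left, 12 genes) and the neuronal list (right, 20 genes), without the members. Points are medians of 11 clones, lines run from the lowest to the highest clone, and red marks the 4 and 6 genes that were variable between clones.

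Of the other neural progenitor genes, 4 of 12 tested were variable (33.3%, against 7.68% of all genes tested). Sox21, a SoxB2 factor, stood at 133 CPM in clone 16 against 14.1 to 30.3 CPM in the other 10, the list's single call in a single clone (0.208% of genes were called higher there), and Otx2 ranged from 12.2 to 54.9 CPM. Sox3, a SoxB1 factor of the neural plate, had 4.84 CPM (clone 22) and 4.35 CPM (clone 24) at the top, against 0.0795 CPM in clone 17, and Sox11 had 8.10 CPM in clone 20, against 0.231 CPM in clone 19. Notch1 (90.6 ± 16.3), the RNA-binding protein gene Msi1 (69.7 ± 17.3) and Hes1 (59.9 ± 12.1 CPM) did not pass.

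Rest averaged 564 ± 73.3 CPM, was lowest in clone 16 (429 CPM) and highest in clone 24 (659 CPM), and was not called. Of 17 tested genes of the REST complex list, 0 were variable, where the share over all genes was 7.68%, by the edgeR goodness-of-fit test, 0 with the dispersion trend of DESeq2 and 3 at an unadjusted p under 0.05. The demethylase gene Kdm1a was the only list gene called in a single clone, at 138 CPM in clone 19, where 0.673% of genes were called lower, against 263 to 351 CPM in the other 10. Neighbours were reported for the members only, so whether the chromosome stretch around Kdm1a was shifted in clone 19 is not given here. Ctdsp2 was at 347 ± 29.8 and Kdm5c at 316 ± 25.2 CPM, and neither passed. The median SD of log2(CPM + 1) was 0.21 in this list, 0.53 in the other neuronal genes, 0.55 in the other progenitor genes and 0.24 over all genes tested. The lists differ in abundance and were not matched for it, so these medians are a description only.

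**Figure D5:**
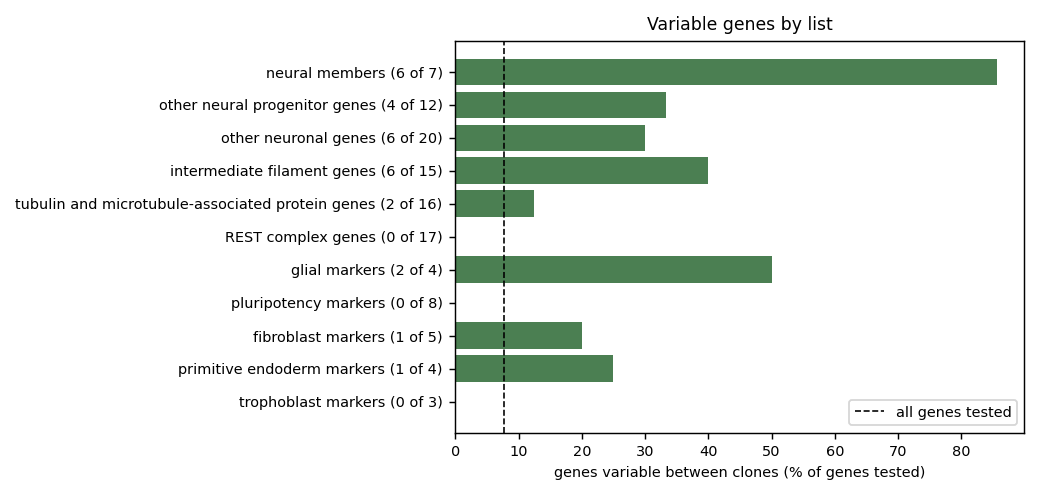
Share of tested genes that were variable between clones (edgeR goodness-of-fit, adjusted p under 0.05) in each list, with counts in brackets. The dashed line is the share over all genes tested, 7.68%, and the filament and tubulin lists include members.

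In the lists of other cell types the variable genes were 2 of 4 tested in the glial list (Mbp and Aldh1l1), 1 of 5 in the fibroblast list (Col1a1), 1 of 4 in the primitive endoderm list (Lama1, 128 to 323 CPM), and 0 of 3 in the trophoblast list (3 at an unadjusted p under 0.05, 0 with the DESeq2 trend). Col1a1 reached the filter only through clone 19 (mean of 0.836 CPM over the other 10), and its call was lost with the DESeq2 trend (adjusted p = 0.656). The pluripotency list had 0 of 8 (2 unadjusted, 0 with the DESeq2 trend). Over all genes tested the share of variable genes was 7.68%. With bulk RNA, a few cells with high levels and a low level in all cells cannot be told apart for any of these genes.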

How the data were processed

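Messenger RNA was sequenced in 11 clones, 1 library each. The authors deposited whole-number read counts for each gene, not normalized. The submitters' processing notes name Bowtie 0.12.7, TopHat 1.4.0 and the genome builds mm9 and hg19. Counting tool and strand setting: not given in the sources used here. Of 22369 mouse gene IDs, 20777 matched a symbol; every line named a gene and every column a clone. Coordinates, exon lengths and gene order are those of GENCODE vM21 (GRCm38, not mm9).

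CPM were computed on TMM library sizes in R 4.3.3 with edgeR 4.0.16, and 12479 genes reached a mean of 1 CPM. To find variable genes, an intercept-only model with the trended dispersion was fitted and its deviance compared with chi-square on 10 degrees of freedom. Each clone was tested against the other 10 by the quasi-likelihood test, adjusted over 137269 pairs. Each SE is the fold change over the square root of F. Neighbours were the nearest 12 tested genes on each side. Correlations used 100000 permutations. DESeq2 1.42.0 and SciPy 1.17.1, pandas 2.3.3 and NumPy 2.4.6 under Python 3.11.15 served for the rest, with figures from matplotlib 3.10.9, and the tests were checked on simulated data. Poisson intervals and the floor cover counting error only. Named genes are the members, 3 genes most like each, the nearest neighbours, and per list the 3 most abundant and up to 4 called genes. Others were named after their values were seen. Members and lists were chosen with earlier results of these data known. Sox1 and Pou3f2 of the progenitor list were not analysed here.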

Additional observations from a re-analysis of the deposited data

How the results depend on the processing

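Normalization with DESeq2 size factors, no filter, a mean of at least 5 CPM, the DESeq2 dispersion trend, counting noise alone and an offset by chromosomal neighbours were tried, and each clone was left out in turn. The number of variable members was 6 of 7, and between 4 and 7 over these alternatives (4 to 6 without 1 clone). The value 4 came without clone 17, where Pax6 was not tested and Ncam1 was no longer called (edgeR goodness-of-fit, adjusted p = 1). At a mean of at least 5 CPM it was 5, since Pax6 and Map2 were not tested. Over all genes 959 were variable, 873 to 919 without 1 clone and 11902 against counting noise alone. Calls on members in single clones numbered 2, but 1 at a mean of at least 5 CPM, 1 with the neighbour offset and 0 to 2 without 1 clone. The Ncam1 call was lost without clone 16, 18, 20, 21, 22, 23, 25 or 26, at adjusted p of 0.0543 to 0.0756. Calls over all genes numbered 293, but 58 with the neighbour offset, 1444 with the DESeq2 Wald test and 152 to 278 without 1 clone. Correlated pairs of members numbered 1, and 1 to 2 without 1 clone. The second was Ncam1 with Map2 without clone 17 (r = 0.84, permutation adjusted p = 0.0389), or Nes with Map2 without clone 26 (r = -0.84, permutation adjusted p = 0.0150). The r of Nefm and Nefl stayed between 0.95 and 0.98. The cause of these changes was not tested. Depth limits Pax6 and Map2, with as few as 7 and 19 counts in a clone. No paired analysis was possible because the labels give 1 group.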

Other observations

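Of the 55 pairs of clones, 23 and 20 were the most alike, with an SD of 0.13 for their log2 ratios over the 4683 genes whose mean reached 50 CPM, against 0.22 to 0.55 for the other pairs. Their squared differences were 9.37 times the variance that counting allows. Tubb3 had 52.6 CPM in clone 23 and 51.9 CPM in clone 20, Nes 11.7 and 12.1 CPM, and Ncam1 78.3 and 72.5 CPM, in the same order of clones. The ratio of clone 23 to clone 20 was 1.68 for Nefm, 1.27 for Nefl and 0.572 for Pax6, which had 12 counts in clone 23 and 15 in clone 20. Whether these clones share a founder cell was not tested.

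Clone 24 had Tubb3 at 77.8 CPM and Crmp1 at 23.7 CPM, each second only to clone 22, together with the lowest Nefl (16.01 CPM) and the second lowest Nefm (4.73 CPM) of the 11 clones. For Tubb3 the order turned when neighbours were taken off: clone 24 was then 0.57 above the median clone on the log2(CPM + 1) scale, clone 21 0.37 and clone 22 0.33, against 0.58, 0.26 and 0.78 before. The correlation of Tubb3 with Nefm over 11 clones was 0.33 (permutation test, adjusted p = 0.610) and with Nefl 0.27 (permutation test, adjusted p = 0.610).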
